A study of Homo sapiens with 6 samples.

Results

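The genes described here are those whose symbol begins with LINC00 followed by digits, the numbered names given to long intergenic non-coding RNA genes. A gene was taken when such a symbol stood in any of 4 deposited lists of chromatin peaks, which gave 191 of the 18086 gene symbols in those lists. A gene is in a list only through a peak up to 20 kb from its start, so shares below are of listed genes and not of all LINC00 genes. The lists come from HL-60, an established human promyelocytic leukaemia line labelled as myeloblast, with either an unaltered (parental) genotype or a knockout of JMJD3, and grown in DMEM with fetal bovine serum. Each genotype had 1 library of H3K4me3 and 1 of H3K27me3, and its input library was not analysed here. The labels do not say how the knockout was made or whether it is a single clone. With 1 library per group there is no replicate error, so no test was made and every difference below is between libraries; the 95% Wilson intervals beside shares cover counting error only.

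A long non-coding RNA gene is transcribed from its own start site, and its promoter carries the same histone marks as that of a protein-coding gene. H3K4me3 lies around start sites in use, while H3K27me3 is laid down by Polycomb repressive complex 2 over silent genes, many of them developmental genes and their non-coding neighbours. JMJD3, the product of KDM6B, takes methyl groups off H3K27 and is known in myeloid cells for its induction by inflammatory signals.

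A promoter peak is one whose centre lay at most 5000 bp from a listed transcript start (TSS) of the gene, or which spanned that TSS. The widths of all promoter peaks of a gene were summed; the lists give no peak height, so a width is the extent of a called region and not its strength. In the parental H3K4me3 list there were 33470 peaks covering 17.5 Mb, and in the knockout list 24943 covering 8.29 Mb; the H3K27me3 lists held 3578 and 3234 peaks over 4.22 and 4.17 Mb. Of 10 genes of myeloblasts and promyelocytes, 8 had promoter H3K4me3 in parental cells and 7 in knockout cells; none of 4 T cell and none of 4 epithelial genes had it, while KLF1 among 4 erythroid genes did, in both genotypes. KDM6B itself had promoter H3K4me3 of 3041 bp in the parental list and 710 bp in that of the knockout, which does not check the deletion. Gene positions below are in hg19, as in the lists.

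The symbols are old: 147 of the 191 are current in RefSeq (GRCh38.p14) and 44 have been renamed. RefSeq now types 18 of them as protein-coding, among them MTLN (LINC00116), MRLN (LINC00948), SMIM26 (LINC00493) and SMIM30 (LINC00998), which encode small membrane proteins. Another 11 carry a divergent-transcript (DT) name taken from a neighbouring gene, such as RB1-DT (LINC00441). The members lie apart from other listed genes more than most: 107 of 191 (56.0%) had no other listed TSS within 20 kb, against 41.1% of all genes. Chromosome 13 holds 37 of the 191 (19.4%), against 2.1% of all genes.

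The promoters of 6 members that the results below turn on are printed as references, to show how differently composed these start regions are. Each is the RefSeq window from GRCh38.p14, 300 bases long, 250 before and 50 after the first listed start, read 5′ to 3′ on the gene's strand, with every CG dinucleotide in capitals. LINC00657 (NORAD) and LINC00637 (PPP1R13B-DT) kept H3K4me3 in both genotypes, LINC00667 and LINC00426 had it in parental and LINC00996 in knockout cells only, and LINC00411 had H3K27me3 alone.
LINC00657: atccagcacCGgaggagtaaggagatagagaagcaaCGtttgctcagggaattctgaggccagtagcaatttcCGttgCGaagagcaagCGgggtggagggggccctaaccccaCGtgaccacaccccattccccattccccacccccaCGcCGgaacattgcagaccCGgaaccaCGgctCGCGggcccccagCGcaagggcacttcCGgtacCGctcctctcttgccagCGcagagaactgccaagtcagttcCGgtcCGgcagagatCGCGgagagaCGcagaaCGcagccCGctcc
LINC00667: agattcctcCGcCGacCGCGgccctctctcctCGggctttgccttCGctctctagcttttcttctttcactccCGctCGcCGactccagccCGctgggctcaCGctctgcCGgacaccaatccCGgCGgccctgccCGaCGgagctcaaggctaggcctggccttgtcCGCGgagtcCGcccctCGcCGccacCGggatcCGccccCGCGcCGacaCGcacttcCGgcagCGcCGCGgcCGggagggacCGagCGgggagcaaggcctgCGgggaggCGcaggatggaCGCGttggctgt
LINC00637: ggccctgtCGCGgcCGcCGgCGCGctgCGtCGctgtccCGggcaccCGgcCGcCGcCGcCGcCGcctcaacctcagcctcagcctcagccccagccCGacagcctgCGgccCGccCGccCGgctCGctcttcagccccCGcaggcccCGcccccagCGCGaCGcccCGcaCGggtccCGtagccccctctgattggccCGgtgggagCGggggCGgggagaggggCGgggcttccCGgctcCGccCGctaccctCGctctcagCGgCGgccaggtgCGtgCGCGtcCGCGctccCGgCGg
LINC00426: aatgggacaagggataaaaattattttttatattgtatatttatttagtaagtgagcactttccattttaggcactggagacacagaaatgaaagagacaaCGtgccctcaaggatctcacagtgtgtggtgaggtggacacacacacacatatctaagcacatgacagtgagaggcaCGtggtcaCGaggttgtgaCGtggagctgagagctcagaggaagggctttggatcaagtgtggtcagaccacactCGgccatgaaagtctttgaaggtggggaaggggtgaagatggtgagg
LINC00996: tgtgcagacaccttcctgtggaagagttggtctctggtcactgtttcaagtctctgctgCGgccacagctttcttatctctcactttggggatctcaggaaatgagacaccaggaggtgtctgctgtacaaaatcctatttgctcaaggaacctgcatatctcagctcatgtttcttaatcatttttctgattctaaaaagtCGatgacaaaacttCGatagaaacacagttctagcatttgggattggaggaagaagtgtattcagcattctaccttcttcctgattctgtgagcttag
LINC00411: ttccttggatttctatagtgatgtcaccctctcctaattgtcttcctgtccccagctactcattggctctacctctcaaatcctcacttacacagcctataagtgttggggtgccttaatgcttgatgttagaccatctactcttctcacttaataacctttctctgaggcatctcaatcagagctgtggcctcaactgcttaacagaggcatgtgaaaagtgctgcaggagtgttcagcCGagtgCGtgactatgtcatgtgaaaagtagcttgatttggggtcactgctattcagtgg

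NORAD's window, at chr20:36050911-36051210 on the minus strand, holds 23 CG, and over the 27305 RefSeq promoters of this length the median is 14 with quartiles of 3 and 28. LINC00667 (chr18:5237850-5238149, plus strand) holds 38, and LINC00637 (chr14:103847471-103847770, plus strand) holds 46. LINC00426 (chr13:30373865-30374164, minus strand) holds 5, LINC00996 (chr7:150433404-150433703, plus strand) 3 and LINC00411 (chr13:100944315-100944614, minus strand) 2. Among 6 motifs searched on both strands, the letters CCGGAAG were found in the windows of NORAD and LINC00667 (10.7% of all promoters hold them), and GGGCGG in those of LINC00667 and LINC00637 (44.6%). TATAAA was found in the window of LINC00426 alone among the 6 (12.0%), CACGTG in those of NORAD and LINC00426 (7.43%), and CCAAT in those of LINC00667, LINC00637, LINC00996 and LINC00411 (35.7%); TGACTCA was in none of the 6 (4.92%). A comparison of sequence over all members is void: 146 of the 191 (76.4%) matched a promoter in the table, and 16 of the 24 that had H3K4me3 in parental cells only.

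For H3K4me3 the question was which of these start sites were marked in each genotype. Promoter H3K4me3 was listed at 72 members in parental cells, 37.7% (31.1 to 44.7), where 71.3% of all genes had it. In knockout cells 52 members had it, 27.2% (21.4 to 33.9), against 62.9% of all genes. The mark was in both lists at 48 members (61.9% of all genes), in the parental list only at 24, in the knockout list only at 4, and in neither at 115. Within 20 kb of a TSS, a peak was listed for 121 members in parental cells (85.0% of all genes) and for 88 in knockout cells (75.6%).

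Of the 72 members marked in parental cells, 24 (33.3%, 23.5 to 44.8) had no promoter peak in the knockout list, against 13.2% of all genes marked in parental cells. Conversely, the 4 members marked in knockout cells only are 4 of 52, where the share over all genes is 1.57%. Other classes of non-coding gene had lower shares: the mark was in parental cells only at 11 of 55 genes with LINC01 symbols (20%, 11.6 to 32.4), at 70 of 431 antisense genes (16.2%, 13.1 to 20.02) and at 4 of 33 long non-coding RNA genes with names of their own, such as MALAT1 and GAS5 (12.1%, 4.82 to 27.3). The interval of the LINC00 genes overlaps those of the LINC01 genes and the named genes and lies above that of the antisense genes.

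**Figure D1:**
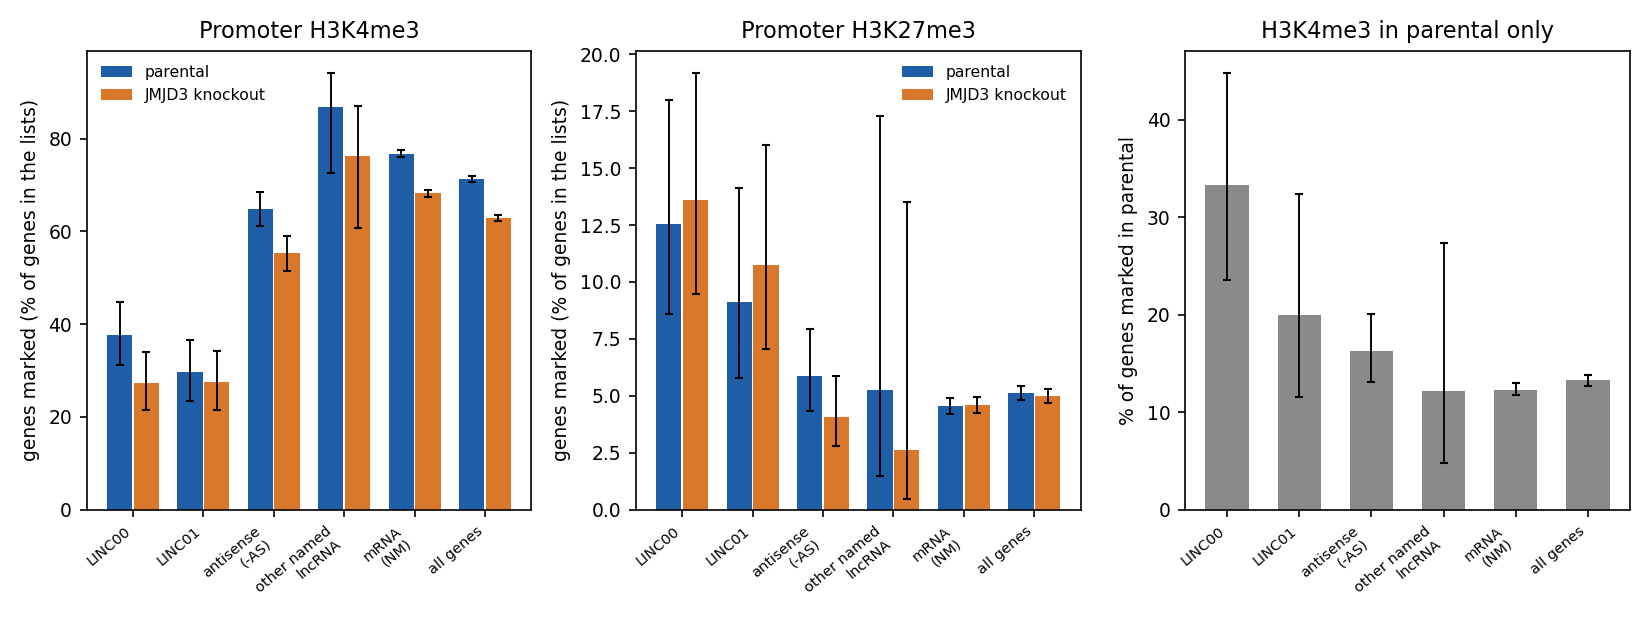
Share of genes with promoter H3K4me3 (left) and promoter H3K27me3 (middle) in parental and JMJD3 knockout HL-60, and share of the genes with parental H3K4me3 that had none in knockout cells (right), for 6 classes of gene symbol. Bars start at 0 and error lines are 95% Wilson intervals; LINC00 genes are at 37.7% and 27.2% for H3K4me3, 12.6% and 13.6% for H3K27me3, and 33.3% on the right.

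Peak width moved with this difference, and its part in it was not tested. The summed parental width had a median of 873 bp over the 72 marked members and of 1552 bp over all marked genes. When all marked genes were divided by parental width into 4 classes of about equal size, 38 of the 72 members (52.8%) fell in the narrowest class, from 146 to 948 bp. There, 24 of 38 members (63.2%, 47.3 to 76.6) had the mark in parental cells only, against 1387 of 3228 genes (43.0%, 41.3 to 44.7). In the next class the counts were 0 of 17 members, which allows up to 18.4%, and 7.82% of all genes; in the upper classes they were 0 of 8 and 0 of 9 members, with 1.92% and 0.248% of all genes. All 24 members marked in parental cells only were thus within the narrowest class of the whole list.

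**Figure D2:**
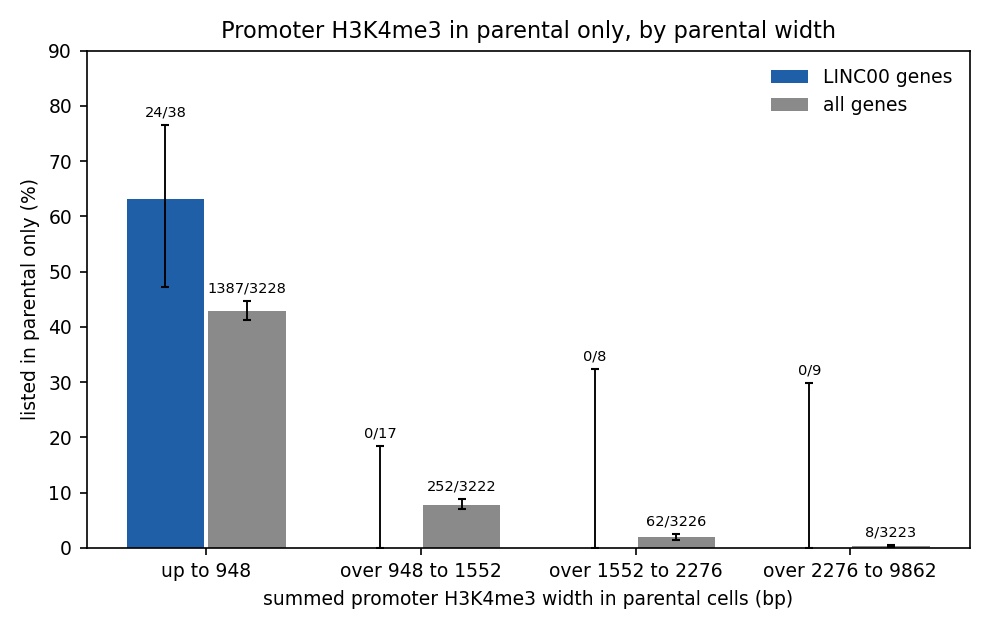
Share of genes with parental promoter H3K4me3 that had none in knockout cells, by class of summed parental width (bp), for LINC00 genes (blue) and all genes (grey). Numbers above the bars are genes in parental only over genes marked in parental, and lines are 95% Wilson intervals; members in parental only occur in the narrowest class alone, at 24 of 38.

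Among the members marked in parental cells only, LINC00426 on chromosome 13 was widest, with a single peak of 715 bp (chr13:30946281-30946995) and none in knockout cells. LINC00094, now BRD3OS on the strand opposite the bromodomain gene BRD3, had 634 bp in 2 parental peaks and none in knockout cells. LINC00152, now CYTOR, a cytoplasmic RNA studied for its effects on the cytoskeleton, had 484 bp in 2 parental peaks (chr2:87755159-87755366 and chr2:87756160-87756435) and none in knockout cells. These peaks lay 289 and 1324 bp from the gene's TSS, with no other listed TSS within 20 kb. LINC00526 and LINC00667 start 70 bp apart on chromosome 18 and share 3 parental peaks of 632 bp in all, so they count as 2 genes but 1 region. Within the promoter window both showed the opposite for H3K27me3: none in parental cells and 1 shared peak of 610 bp in knockout cells (chr18:5233603-5234212). That peak lay about 4 kb from the starts. Within 20 kb, both genes had H3K27me3 in each genotype, with 3 parental and 4 knockout peaks. They were the only 2 of 191 members with promoter H3K4me3 in parental cells only and promoter H3K27me3 in knockout cells only. How many of all genes had this pair of states was not counted, so the 2 cannot be set against a background. LINC00893 and LINC00894, the divergent transcripts of EOLA1 and EOLA2 on the X chromosome, had parental widths of 571 and 546 bp and no knockout peak. The other members of this class ranged from 146 bp (LINC00327) to 508 bp (LINC00518), and their median with those above was 349 bp, against 499 bp for all genes marked in parental cells only.

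The 4 members marked in knockout cells only had 1 narrow peak each. LINC00996 had 218 bp (chr7:150126136-150126353), with a centre 4497 bp from its TSS. LINC00189 had 210 bp at 3438 bp, and LINC00176, now the protein-coding C20orf204, had 163 bp at 4709 bp. At LINC00582 the peak was 146 bp wide and 108 bp from the TSS. The peaks of LINC00996 and LINC00176 were thus near the outer edge of the promoter window. In the wider window of 10 kb, LINC00176 and LINC00582 had a larger summed H3K4me3 width in parental than in knockout cells. The differences (knockout minus parental) were -670 and -570 bp.

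Chromosomes did not take equal parts. On chromosome 13, 5 of the 7 members marked in parental cells (LINC00426, LINC00544, LINC00539, LINC00462 and LINC00327) had no knockout peak, while 8.95% of all genes on that chromosome marked in parental cells had none. LINC00441 and LINC00563 kept theirs. On the X chromosome 3 of 5 members were marked in parental cells only, but there 46.3% of all marked genes were too. Without chromosome 13 the share over the remaining members was 29.2% (19.6 to 41.2) beside 13.3% of all genes, and without the X chromosome 31.3% beside 12.3%. Among the other genes within 5 Mb of each member that had parental H3K4me3, the share in parental cells only had a median of 8.89% around the 24 members marked in parental cells only, and of 10.5% around the 48 marked in both.

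Members that kept promoter H3K4me3 mostly had a smaller summed peak width in knockout cells. Over the 48 marked in both genotypes the median summed width fell from 1133.5 bp (parental) to 553 bp (knockout), and the median of the log2 ratio of knockout to parental width was -1.20 (quartiles -1.51 and -0.64), against -1.01 over all genes marked in both. Width was at least 2-fold lower at 30 of 48 (62.5%), where 50.6% of all genes marked in both met that bound. It was at least 2-fold higher at 1, LINC00630, where the share over all genes is 0.384%. In all, 44 of the 48 were narrower in knockout cells and 4 (8.33%) were wider, where 453 of 11190 genes marked in both (4.05%) were wider. How the members stood against all genes depended on the peaks counted: with peaks under 300 bp left out the median log2 ratio was -0.98 (29 members) against -1.14, and with peaks spanning the TSS only it was -0.70 (4 members) against -1.01.

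**Figure D3:**
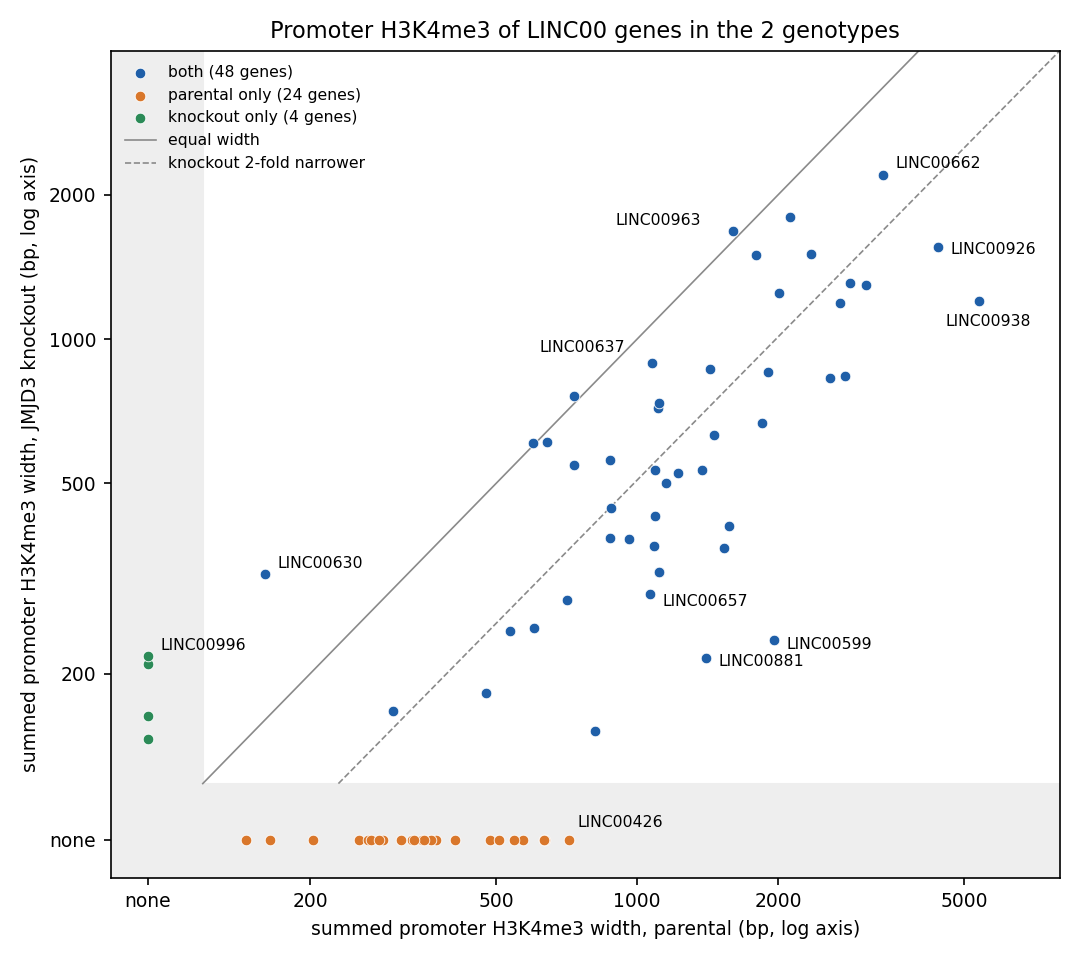
Summed promoter H3K4me3 width (bp, log axes) of each marked LINC00 gene in parental (horizontal) and JMJD3 knockout (vertical) HL-60; points on the grey bands had no promoter peak in that genotype. Of the 48 genes with peaks in both, 44 lie below the solid line of equal width and 30 on or below the dashed line of a 2-fold lower knockout width.

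The widest marked members followed the common direction by unequal amounts. LINC00938, which starts 1915 bp from ARID2, a gene for a subunit of the PBAF chromatin remodelling complex, had 5364 bp in 10 parental peaks and 1203 bp in 5 knockout peaks (log2 ratio -2.16). Of its 10 parental peaks, 5 lay nearer to the TSS of ARID2. LINC00926, whose nearest other listed TSS is 18773 bp away, had 4401 and 1555 bp in 6 peaks each (-1.50). LINC00662 changed least among the 8 widest, with 3361 and 2205 bp (-0.61), and it was 422 bp wider in knockout cells when only peaks spanning the TSS were counted. LINC00235, 448 bp from the calpain gene CAPN15, had 3088 and 1297 bp (-1.25), and LINC00476, now ERCC6L2-AS1, had 2845 and 1307 bp (-1.12). LINC00884, now ATP13A3-DT, had 2778 and 836 bp (-1.73). LINC00909, now ZNF407-AS1, had 2710 and 1188 bp (-1.19). LINC00441, the divergent transcript that starts 85 bp from the retinoblastoma gene RB1, had 2585 and 830 bp (-1.64); its 3 knockout peaks all lay nearer to RB1, and the parental peak that spans the start of LINC00441 (chr13:48876947-48877833) was not overlapped by any knockout peak. With all promoter peaks counted, the 8 were wider in parental than in knockout cells.

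The steepest narrowing among members in both lists was at LINC00599, now MIR124-1HG, the host of a microRNA best known from neurons, where 1958 parental bp stood against 235 bp in the knockout (-3.06). LINC00881 followed with 1402 and 216 bp (-2.70), and LINC00339 with 814 and 152 bp (-2.42). At LINC00881 and LINC00339 no knockout peak overlapped a parental peak, so these ratios compare different called regions. NORAD, an abundant cytoplasmic RNA that binds the Pumilio proteins, had 1068 bp in 3 parental peaks and 294 bp in 2 knockout peaks (-1.86). Only the parental peak farthest from its TSS (chr20:34635968-34636279) was overlapped by a knockout peak, and the parental peak of 453 bp closest to the start (chr20:34638261-34638713) was not. LINC00882 and LINC00883 (DUBR) start 53 bp apart on chromosome 3 and share their peaks, with 1112 bp of parental and 326 bp of knockout width (-1.77).

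Members picked for a known product or name were narrower in knockout cells where both lists held them. Over all genes marked in both, 4.05% were wider. SMIM26 (LINC00493) had 1459 and 632 bp (-1.21), and SMIM30 (LINC00998) 961 and 383 bp (-1.33). LINC00467 had 1094 and 428 bp (-1.35), LINC00173 709 and 285 bp (-1.31), LINC00265 1532 and 367 bp (-2.06), and LINC00936 (ATP2B1-AS1) 1907 and 855 bp (-1.16). LINC00261, LINC00899 and SPAAR (LINC00961) had no promoter peak of either mark, and LINC00632, LINC00461, LINC00473, LINC00511 and LINC00346 stood in no list.

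The 4 members that were wider in knockout cells had narrow H3K4me3 peaks or differed by few bp. LINC00630, an X-linked gene, went from 160 to 323 bp (log2 ratio 1.01), in 1 peak each that did not overlap (chrX:102023829-102023988 and chrX:102024260-102024582). Around it, 14 of 21 other genes within 5 Mb with parental H3K4me3 had none in knockout cells, 66.7%. LINC00963 had 1600 and 1681 bp (0.07), LINC00886 732 and 760 bp (0.05), and LINC00683 599 and 607 bp (0.02), differences of 81 bp or less. Each of these last 3 changed its direction under another promoter window or peak threshold: in the 10 kb window the knockout width minus the parental width was -243 bp at LINC00886 and -72 bp at LINC00963, and with peaks under 300 bp left out it was -316 bp at LINC00683.

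Peak by peak, the 72 marked members had 179 parental H3K4me3 promoter peaks, of which 84 (46.9%, 39.8 to 54.2) were overlapped by at least 1 bp of a knockout peak, against 55.8% over all genes. Of the 113 knockout peaks, 99 (87.6%, 80.3 to 92.5) were overlapped by a parental peak, against 91.2%. The median width of a single peak was 330 bp (parental) and 258 bp (knockout) (387 and 266 bp over all genes). A peak spanned the TSS at 16 of the 72 members in parental cells (22.2%, against 24.1% of all marked genes) and at 8 of 52 in knockout cells (15.4%, against 9.86%). Counting all listed pairs of a member and a peak up to 20 kb, 33.1% of the parental and 29.0% of the knockout H3K4me3 pairs fell in the first kb, against 37.9% and 39.9% over all genes.

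**Figure D4:**
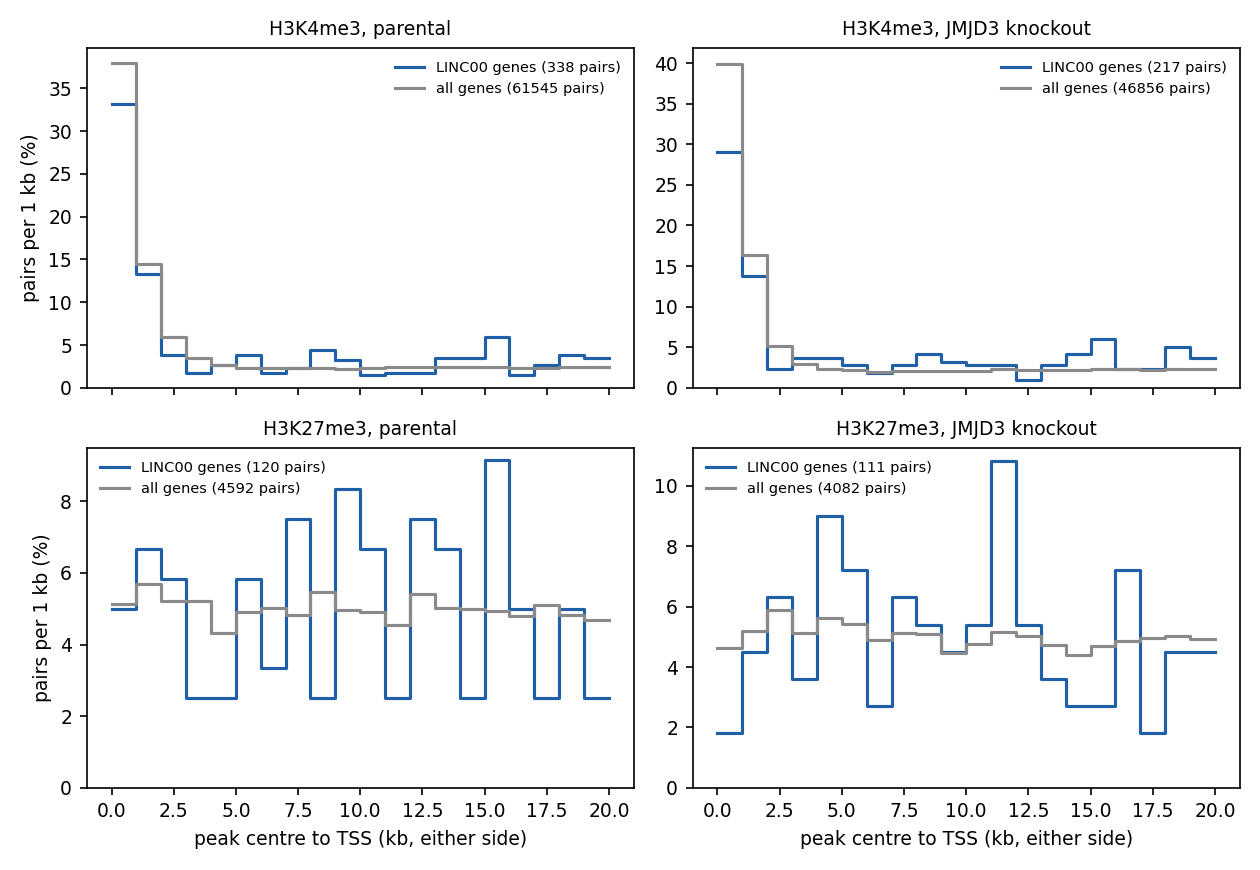
Distance between peak centre and TSS (kb, either side) for every listed pair of a gene and a peak, as a share of all pairs per 1 kb, for LINC00 genes (blue) and all genes (grey), by mark and genotype. H3K4me3 pairs of both sets are concentrated in the first kb (33.1% of LINC00 pairs in parental cells), and H3K27me3 pairs are spread over the 20 kb (5.00% of LINC00 pairs in the first kb in parental cells).

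Some of these genes start beside another gene: 27 members (14.1%) had another listed TSS at most 1 kb away, against 24.8% of all genes. It was therefore asked whose start the peak was closest to. Among the 72 members marked in parental cells, the H3K4me3 peak closest to the member lay nearer to another gene's TSS at 10 (13.9%, 7.72 to 23.7), against 14.7% of all genes; in knockout cells it did so at 6 of 52 (11.5%), against 16.4%. The 10 were LINC00337 (nearer ICMT, a methyltransferase of prenylated proteins), LINC00883 (LINC00882), LINC00167 (PRDM10, a zinc finger gene), LINC00271 (AHI1, a cilium gene), LINC00599 (MIR124-1), LINC00857 (ANXA11, an annexin), LINC00476 (ERCC6L2, a DNA repair gene), LINC00634 (CENPM, a centromere gene), LINC00894 (CXorf40B) and LINC00526 (LINC00667). Counted by peak, 43 of 185 parental pairs (23.2%) and 28 of 114 knockout pairs (24.6%) lay nearer to another gene, against 24.6% and 25.96% over all genes. The mark was in parental cells only at 3 of the 10 members (30%) and at 21 of the other 62 (33.9%), against 12.9% and 13.3% of all genes in these classes, so 3 of the 24 members marked in parental cells only had a closest peak nearer to a neighbour.

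The distance to the nearest other listed TSS went with how many members were marked. A neighbour was seen only if it stood in a list, through a peak up to 20 kb from its own start. The distance is therefore not independent of the peaks, and genes in no list are missing from it. With another TSS at most 1 kb away, 21 of 27 members (77.8%, 59.2 to 89.4) had parental H3K4me3, against 88.4% of all genes at that distance. From 1 to 5 kb it was 9 of 13 (69.2%), and from 5 to 20 kb 16 of 44 (36.4%, 23.8 to 51.1), against 77.9% and 58.8%. With none within 20 kb it was 26 of 107 (24.3%, 17.2 to 33.2), against 66.8% of all genes. In parental cells only the mark stood at 6 of 21, 3 of 9, 5 of 16 and 10 of 26 marked members of these classes (28.6%, 33.3%, 31.3% and 38.5%), against 8.17%, 12.8%, 16.6% and 15.7% of all genes. Of the 11 members with divergent-transcript names, 6 were marked in both genotypes (61.9% of all genes), with a median log2 ratio of -1.05 against -1.01. The mark was in parental cells only at 3 and in neither list at 2, against 1709 and 5009 of 18086 genes.

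Among listed genes, promoter H3K27me3 was more frequent at LINC00 genes than over all genes, in both genotypes. Part of this contrast is set by how genes enter the lists. A gene with no H3K4me3 peak within 20 kb was listed through H3K27me3 alone. In parental cells 63.4% of members had such an H3K4me3 peak, against 85.0% of all genes. Promoter H3K27me3 was listed at 24 members in parental cells (12.6%, 8.59 to 18.0), against 5.11% of all genes. In knockout cells it was listed at 26 (13.6%, 9.46 to 19.2), against 4.97%. Genes with LINC01 symbols had intervals that overlap these, with 9.14% (5.78 to 14.1) and 10.8% (7.07 to 16.02). Both lists held 11 LINC00 genes (2.37% of all genes). The mark was in parental cells only at 13 of 24 (54.2%, 35.1 to 72.1), against 53.6% of all genes marked in parental cells, and in knockout cells only at 15 of 26, against 52.3%. In a window of 1 kb, too few were left for that comparison in knockout cells: 6 members in parental and 2 in knockout cells had the mark, of 251 and 197 genes in all. Within 20 kb, 57 members in parental cells (12.9% of all genes) and 58 in knockout cells (13%) had a peak, or 29.8% and 30.4%, and for LINC01 genes these shares were 33.9% and 29.0%. The number of marked members was thus 24 and 26 with all promoter peaks counted, and as with all genes the peaks came largely at different genes in each library. With peaks under 1000 bp left out the numbers moved apart: the parental list then held 8 members and the knockout list 18, of which 14 in that list only, against 458 and 542 of all genes.

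The marks seldom met at these genes, but part of the contrast is set by how genes enter the lists. A gene with no H3K4me3 peak within 20 kb was listed through H3K27me3 alone. Of the 115 members with no promoter H3K4me3 in either list, 36 (31.3%, 23.5 to 40.3) had H3K27me3 in at least 1 genotype, against 22.2% (21.1 to 23.4) of all such genes; of the 76 members with H3K4me3, 3 did (3.95%, 1.35 to 10.97), against 2.16%. Members with no other listed TSS within 20 kb had H3K27me3 in at least 1 genotype at 28 of 107 (26.2%), against 11.6% of all genes so placed.

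The 11 members in both H3K27me3 lists were mostly wider in knockout cells: 9 of 11 were wider (81.8%, against 50.8% of all genes in both), and the median log2 ratio was 0.96, against 0.01 over all 429 genes in both. At least 2-fold wider were 5 of 11 (21.2% of all genes in both), and 1 was at least 2-fold narrower (23.5%). LINC00354 on chromosome 13 gained most, from 595 bp (chr13:112544872-112545466) to 2748 bp (chr13:112542777-112545524), a log2 ratio of 2.21. LINC00551, now ARGLU1-DT, went from 1717 to 3543 bp (1.05), and LINC00502 had 952 and 1988 bp (1.06). LINC00609 had 528 and 1162 bp (1.14), though in the 10 kb window its difference (knockout minus parental) was -319 bp. LINC00669 had 449 and 1018 bp (1.18), in 1 peak each that did not overlap. The peak centres lay 661 bp (parental) and 4769 bp (knockout) from its TSS, so the 1 kb window held its parental peak only. MRLN (LINC00948), which encodes a micropeptide inhibitor of the calcium pump SERCA in skeletal muscle, had 502 and 978 bp (0.96) and no H3K4me3. LINC00858 and LINC00865 differed less, with 992 and 1253 bp and with 721 and 825 bp. The peaks of LINC00858 overlapped only at their ends (chr10:86037773-86038764 in parental and chr10:86036540-86037792 in knockout cells). Those of LINC00865 did not overlap (chr10:91588377-91589097 and chr10:91590415-91591239). In the 1 kb window LINC00865 had its parental peak only, a difference of -721 bp.

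The 2 that were narrower in knockout cells had the widest H3K27me3 of the group in parental cells. LINC00658 went from 4085 to 1922 bp (-1.09); its parental peak of 2527 bp spans the TSS (chr20:5425700-5428226) and no knockout peak overlapped it. LINC00368 had 3497 and 2779 bp (-0.33). The median over the 11 depended on the window and the peaks counted: it was 0.33 in a 10 kb window (22 members), 0.65 without chromosome 13 (8 members) and -0.03 with peaks under 1000 bp left out (4 members).

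**Figure D5:**
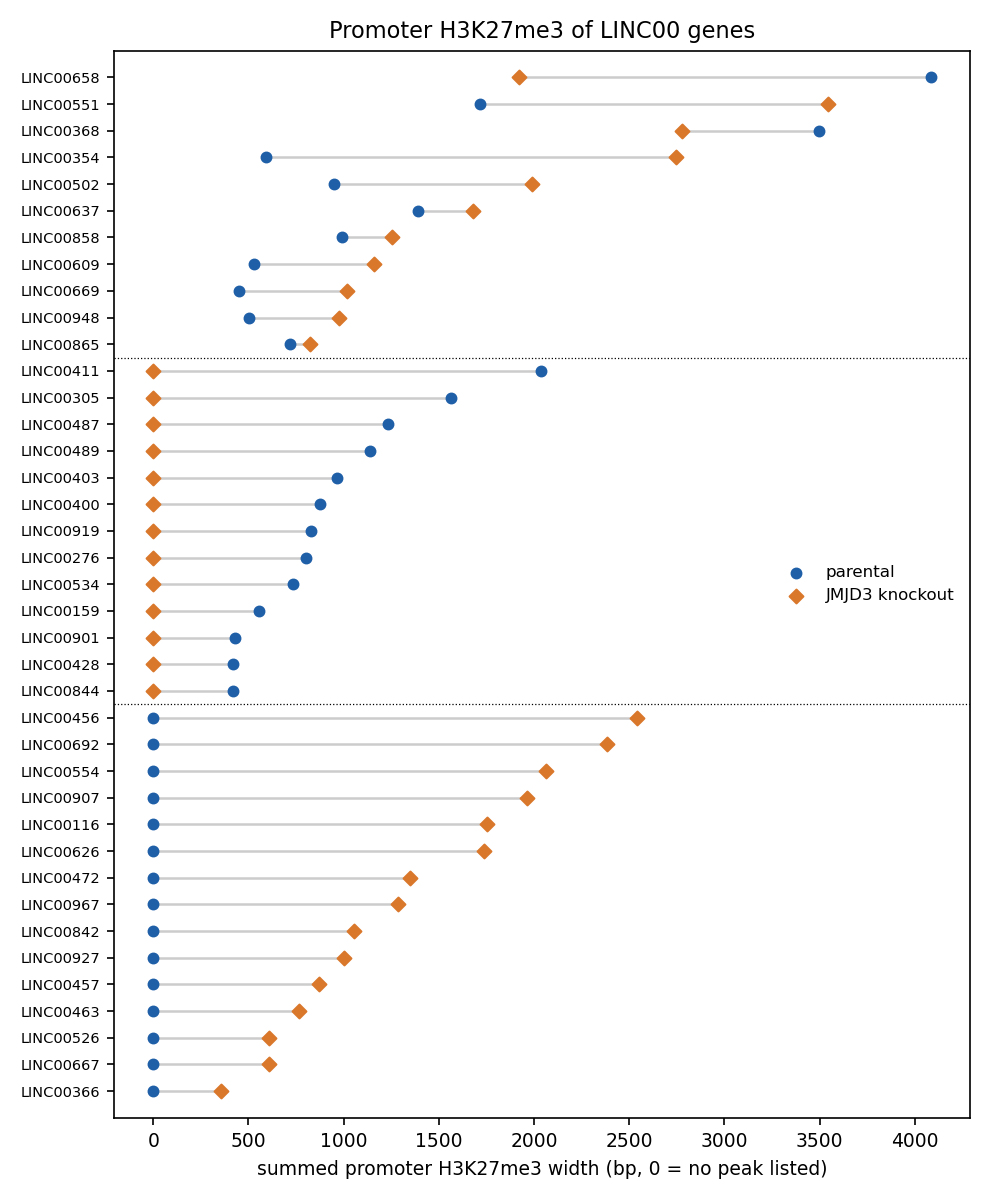
Summed promoter H3K27me3 width (bp, 0 where no peak was listed) in parental (circles) and JMJD3 knockout (diamonds) HL-60 for the 39 LINC00 genes with the mark. Dotted lines separate genes with the mark in both genotypes (11, of which 9 were wider in knockout cells), in parental only (13) and in knockout only (15).

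In parental cells only, LINC00411 had the widest H3K27me3, 2035 bp in 2 peaks (chr13:101595132-101596023 and chr13:101592542-101593684). LINC00305 had 1566 bp (in the 10 kb window it was marked in both, with 30 bp more in knockout cells), LINC00487 1235 bp and LINC00489 1141 bp. LINC00403, now SOX1-OT and overlapping the neural transcription factor gene SOX1, had 965 bp, LINC00400 876 bp, LINC00919 828 bp and LINC00276 803 bp. None of these 8 had promoter H3K4me3 in either genotype.

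In knockout cells only, LINC00456 had 2542 bp (chr13:97828004-97830545), LINC00692 2383 bp, LINC00554 2063 bp and LINC00907 1966 bp. The knockout peak of LINC00907, centred 4165 bp from its TSS, was overlapped by a parental peak that did not count as its promoter peak. Its place in this class thus rests on the promoter window. LINC00554 lies on chromosome 13 about 16 kb from ZIC2, a zinc finger gene of forebrain development. MTLN (LINC00116), which encodes the mitochondrial micropeptide mitoregulin, had 1754 bp (chr2:110983851-110985604), with a centre 4210 bp from its TSS. LINC00626 had 1737 bp, LINC00472 1349 bp and LINC00967 1284 bp. These 8 had no promoter H3K4me3 either, and in the wider window of 10 kb the difference at LINC00472 (knockout minus parental) was -224 bp.

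H3K27me3 seldom sat on the start itself. The centre lay within 1 kb of the TSS in 6 of 27 parental pairs of a member and a promoter peak (22.2%, against 20.1% over all genes) and in 2 of 28 knockout pairs (7.14%, against 17.5%), and 1 member in each genotype had a peak that spanned the TSS (4.17% and 3.85% of marked members, against 13.5% and 12.7% of all marked genes). Of the 27 parental promoter peaks, 9 (33.3%, 18.6 to 52.2) were overlapped by a knockout peak, and of the 27 distinct knockout peaks, 10 (37.0%, 21.5 to 55.8) by a parental peak; over all genes these shares were 30.4% and 33.0%.

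A single member, LINC00637 (PPP1R13B-DT), had both marks at its promoter, and it did so in parental cells (both marks stood at 1.15% of all genes) and in knockout cells (0.84%). Its TSS is 130 bp from that of PPP1R13B, which encodes the p53-binding protein ASPP1, and its window was the richest in CG of those printed above. Its H3K4me3 went from 1076 to 892 bp (log2 ratio -0.27), and its H3K27me3 from 1393 to 1681 bp (0.27). The H3K27me3 peaks (chr14:104311628-104313020 in parental and chr14:104311468-104313148 in knockout cells) lay next to the H3K4me3 peaks in parental cells and overlapped them in knockout cells (chr14:104313042-104313804 and chr14:104313001-104313892), and of its 5 promoter peaks 4 lay nearer to PPP1R13B. When each peak was counted for its nearest gene alone, no member had both marks.

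Of the 191 members, 79 had no promoter peak of either mark in any list: 115 had no promoter H3K4me3, and 36 of these had H3K27me3. Over all 18086 genes, 5009 had no promoter H3K4me3 in either list, and 1112 of these had H3K27me3. The 79 members entered the lists through peaks farther away, up to 20 kb: 43 through H3K4me3 peaks alone, 34 through H3K27me3 peaks alone and 2 through both. This split was not counted over all genes.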

How the data were processed

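H3K4me3 and H3K27me3 were measured by chromatin immunoprecipitation and sequencing in parental and JMJD3 knockout HL-60, 1 library each; 2 input libraries were not analysed here. Per the submitters' processing notes the tools were MACS2 2.1.1, BWA 0.7.10 and SAMtools, the build was hg19, and no settings are stated. Each deposited list pairs a peak with transcripts whose start lies up to 20 kb away and gives a distance and a score; per the file headers and values, the authors' score is a function of the distance alone and was not used. Read depth per library is not given in the sources used. The mark was taken from the sample titles: 1 title spells it K3K4me3, and the antibody label of both H3K27me3 libraries names H3K4me3 with another catalogue number.

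Positions in the lists are hg19, written here counting from 1. Peaks were joined to gene symbols, widths summed within 5 kb of a TSS, and the nearest other gene taken among the listed pairs (python 3.11.15, pandas 2.3.3, numpy 2.4.6, scipy 1.17.1, matplotlib 3.10.9). Symbols were matched to RefSeq for current names, and 2 symbols of 1 gene were not counted as different genes. The steps were tested on simulated data. Named members were, per mark, the 8 widest in each state, the 4 largest gains and losses, all with both marks, and a list with known names; others are LINC00339, LINC00881, LINC00882, LINC00883 and those in lists of 10 or fewer, named after their values were seen. Members and lists were chosen with earlier results of these data known. Alternatives were windows of 1 and 10 kb, peaks spanning the TSS only, nearest gene only, wider peaks (300 bp for H3K4me3, 1000 bp for H3K27me3), lists of equal length, 50% overlap, and antisense and microRNA genes not counted as neighbours; leaving out chromosome 13 or X, counting members that share all peaks once, and the alternatives for both marks were chosen after seeing the data. The result of 1 further marker list is not reported here.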

Additional observations from a re-analysis of the deposited data

How the results depend on the processing

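The main limit is 1 library per genotype and mark: list length, depth and the genotype cannot be told apart, and a gene absent from a list may hold signal below the peak threshold. Of the count, share and median results under the alternatives, 72 kept within their range and 28 did not. For single members 562 did, 157 moved and 13 reversed. Each named member was scored for both marks, and a member without promoter peaks of a mark under both settings counted as kept. The 562 therefore overstates how stable the marked members were. The counts of members with H3K4me3 in parental cells only ranged from 19 to 30, except 12 when only peaks spanning the TSS counted. In the 1 kb window, 2 members had H3K4me3 in knockout only, 5 had H3K27me3 in parental only, 1 in knockout only and 1 in both, and 0 had both marks in either genotype; LINC00886 (H3K4me3, -178 bp, knockout minus parental) and LINC00865 (H3K27me3, -721 bp) reversed. In the 10 kb window, 22 had H3K27me3 in parental only, 22 in both, and 2 had both marks in parental cells; H3K4me3 reversed at LINC00176 (-670 bp), LINC00582 (-570 bp), LINC00886 (-243 bp) and LINC00963 (-72 bp), and H3K27me3 at LINC00305 (30 bp), LINC00472 (-224 bp) and LINC00609 (-319 bp). With peaks spanning the TSS only, 12 members had H3K4me3 in parental only and 4 in both, 1, 1 and 0 had H3K27me3 in parental only, knockout only and both, and 0 had both marks in either genotype; the median log2 ratio was -0.70, 6.25% had a closest peak nearer to another gene, 56.2% of parental peaks were overlapped, and LINC00662 (422 bp) and LINC00683 (-316 bp) reversed. With each peak counted for its nearest gene, 0 had both marks in either genotype. With wider peaks only, 1 member had H3K4me3 in knockout only and 29 in both, 4 had H3K27me3 in parental only, 14 in knockout only and 4 in both, 37.8% of parental peaks were overlapped, and LINC00683 (-316 bp) and LINC00963 (-388 bp) reversed. The overlapped share was 57.8% with lists of equal length and 19.6% when 50% of a parental peak had to be covered. Under all settings but peaks spanning the TSS (75% against 72.2%), the share of marked members with H3K4me3 in parental only was 28.8% to 48.2%, against 10.7% to 30.3% of all genes. No paired analysis was possible because each genotype and mark has 1 library.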
